A study of Mus musculus with 3 samples.

Results

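The cholinergic neuron identity genes were 8 genes picked by name, namely Chat, Slc18a3, Slc5a7, Ache, Slc10a4, Ecel1, Lhx8 and Isl1, and all 8 of them were found among the 54532 genes of the deposited table. They cover the synthesis, storage, uptake and breakdown of acetylcholine, together with transcription factors of forebrain cholinergic neurons. They were measured by RNA-seq in 3 libraries from the prelimbic cortex (PrL) of male C57BL/6J mice, aged 6 to 8 weeks when bought. The CUMS oe-circ group received rAAV-hSyn-circFKBP8-bGH-polyA-CMV-EGFP for the circular RNA circFKBP8(5S,6), the CUMS oe-pep group received an rAAV with hSyn, the coding sequence of the protein cFKBP8 that this circular RNA encodes, 3×Flag, P2A-EGFP and an hGH-polyA signal, and the CUMS vehicle group received the empty rAAV-hSyn-bGH-polyA-CMV-EGFP. All vectors were AAV/9, were injected into the PrL of both sides, and carried the human synapsin promoter hSyn, which directs expression to neurons in general and not to cholinergic neurons in particular. Chronic unpredictable mild stress (CUMS) was then applied to all 3 groups for 5 weeks, so no unstressed library was part of the comparison. The vectors of the CUMS oe-circ and CUMS vehicle groups expressed EGFP from a CMV promoter, whereas that of the CUMS oe-pep group joined it to the peptide by P2A. Each group had 1 library, and the number of mice behind a library is not given in the sources used here. No test between groups, SD or P value was therefore possible, and no difference below had a replicate check.

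Acetylcholine is made from choline and acetyl-CoA in the cholinergic nerve ending, loaded into vesicles, released, and split in the synaptic cleft, after which the choline is taken up again. The PrL receives most of its acetylcholine through axons of neurons whose cell bodies lie in the basal forebrain, and the mRNA of these neurons is found mainly around the cell body. In mouse cortex a small population of interneurons, many of them positive for VIP, also contains Chat. The striatum and the septum, which lie close to the PrL, hold cholinergic neurons of their own.

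The reads counted in genes numbered 14413544 in the CUMS oe-circ library, 16410635 in the CUMS oe-pep library and 18084058 in the CUMS vehicle library. Levels are given as FPKM, a fragment count scaled for the length of the gene and the depth of the library, and a single read on 1 kilobase stood for 0.0687, 0.0597 and 0.0540 FPKM in these libraries. Intervals in parentheses are exact 95% intervals from the reads, Poisson for a level and conditional binomial (Clopper-Pearson) for a ratio. They cover counting error only, and they compare libraries and not groups. Cortical markers were abundant in all of them, with Slc17a7, the vesicular glutamate transporter of cortical excitatory neurons, at 277, 253 and 235 FPKM. The endogenous Fkbp8 gene had 78.0, 77.2 and 80.5 FPKM, and whether any read of the vectors was counted in it was not tested.

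Chat and Slc18a3 form a single locus, which is why the bases before their starts are shown together here, beside those of Slc10a4 and Isl1, whose windows held matches to the same short motifs. Chat, the enzyme that makes acetylcholine, spans chr14:32408203-32465989 on the minus strand of mm10. Slc18a3, the transporter that loads acetylcholine into vesicles, spans chr14:32462438-32464850 on the same strand, and its single exon of 2413 bases starts 1139 bases downstream of the Chat start, inside the first intron of the longest Chat transcript. None of the exons of the 8 annotated Chat transcripts lies over it, and the exons of both genes share 0 bases. The sequences come from the RefSeq promoter windows of GRCm38.p6, which hold the 250 bases before each RefSeq start and matched 8 of the 8 genes. Each is printed in the direction of transcription and only up to the start of the gene in the deposited table, and the capitals mark matches to the motifs described after them, on either strand. The Chat stretch is chr14:32465990-32466159, that of Slc18a3 chr14:32464851-32465100, that of Slc10a4 chr5:73006654-73006882 and that of Isl1 chr13:116309690-116309938.
Chat: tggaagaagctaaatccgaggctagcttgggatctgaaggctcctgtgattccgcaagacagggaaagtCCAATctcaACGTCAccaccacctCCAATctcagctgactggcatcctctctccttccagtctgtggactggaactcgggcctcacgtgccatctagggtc
Slc18a3: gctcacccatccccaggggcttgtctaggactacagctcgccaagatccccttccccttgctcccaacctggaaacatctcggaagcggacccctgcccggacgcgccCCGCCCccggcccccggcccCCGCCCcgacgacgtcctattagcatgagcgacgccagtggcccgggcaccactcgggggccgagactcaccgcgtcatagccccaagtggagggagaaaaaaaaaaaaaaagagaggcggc
Slc10a4: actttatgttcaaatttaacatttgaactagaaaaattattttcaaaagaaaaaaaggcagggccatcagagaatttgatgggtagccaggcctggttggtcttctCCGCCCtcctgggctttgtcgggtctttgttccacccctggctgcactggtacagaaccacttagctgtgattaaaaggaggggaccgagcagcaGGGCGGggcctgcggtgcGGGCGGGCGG
Isl1: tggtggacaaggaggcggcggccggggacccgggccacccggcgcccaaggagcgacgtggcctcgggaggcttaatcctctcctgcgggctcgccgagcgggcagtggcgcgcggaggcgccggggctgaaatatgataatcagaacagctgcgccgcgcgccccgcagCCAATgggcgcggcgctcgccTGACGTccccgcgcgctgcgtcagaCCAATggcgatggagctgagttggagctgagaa

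Chat and Isl1 were the 2 of 8 genes with a match to TGACGT, the core of the cAMP response element, which was found in 6.47% of all 32851 windows. Both also held a pair of CCAAT boxes in the direction of transcription, and Ecel1 held 1 on the opposite strand, inside the span of Ecel1 in the deposited table. The CCAAT box was thus found in 3 of 8 windows, against 33.8% of all windows. The GC box, GGGCGG, was found in 3 of 8 windows, those of Ache, Slc10a4 and Slc18a3, against 32.7% of all windows, and a pair of these matches overlapped by 2 bases in both Ache and Slc10a4. TAATTA, a homeodomain core, was found in 0 of 8 windows and in 4.84% of all windows. The windows ranged in GC content between 45.6% for Slc5a7 and 73.6% for Ache, with a median of 52.4% over all windows. The Ache window, with its GC box matches, lay wholly inside the span of Ache in the deposited table and not before it. Both strands were searched for each of the 4 motifs, which were picked after these windows had been seen, and a match is a description of the letters only.

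**Figure D1:**
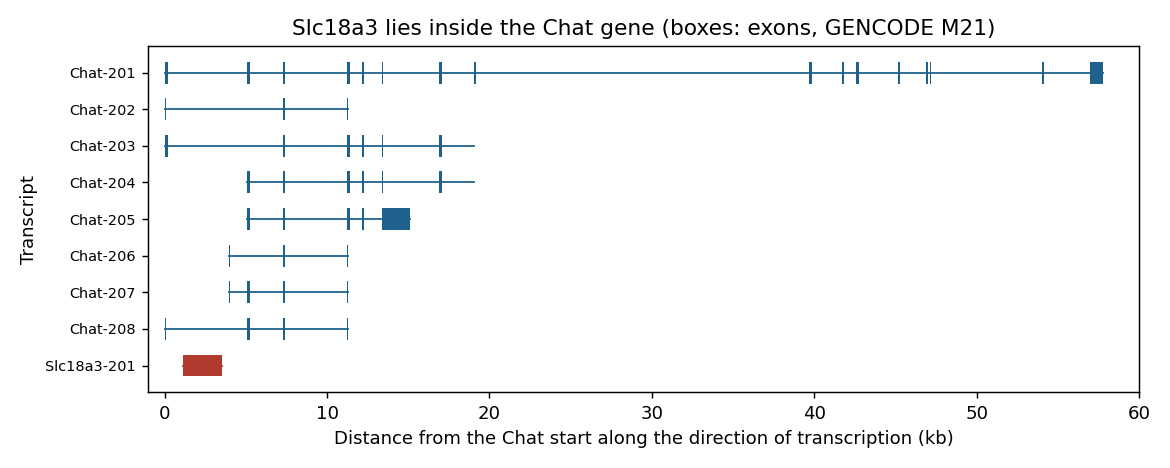
The 8 annotated Chat transcripts and the Slc18a3 transcript, with exons as boxes and introns as lines. The horizontal axis gives the distance from the Chat start in kilobases. The single Slc18a3 exon lies in the first intron of the longest Chat transcript and meets no Chat exon.

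All 8 genes were lowest in the CUMS oe-circ library, intermediate in the CUMS oe-pep library and highest in the CUMS vehicle library. This order was found in 16.9% of the 20203 genes whose mean FPKM reached 0.1, and in 17.5% of the 14551 of them whose mean also reached 20 reads. Every one of the 8 genes was in both sets, and each had an FPKM of at least 0.1 even in its lowest library. Without Ache, the other 7 genes together had 183 reads in the CUMS oe-circ library, 659 in the CUMS oe-pep library and 1552 in the CUMS vehicle library. Scaled by depth, this was 6.67-fold lower in CUMS oe-circ than in CUMS vehicle (5.72 to 7.81), 2.13-fold lower in CUMS oe-pep than in CUMS vehicle (1.94 to 2.34), and 3.13-fold lower in CUMS oe-circ than in CUMS oe-pep (2.65 to 3.71). In tissue RNA, fewer cells of a type and less RNA per cell cannot be told apart.

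Chat (ENSMUSG00000021919), whose enzyme joins choline to an acetyl group, had 0.351 FPKM in the CUMS oe-circ library (0.225 to 0.522), 1.09 in the CUMS oe-pep library (0.873 to 1.35) and 2.18 in the CUMS vehicle library (1.88 to 2.52). These intervals did not overlap between any of the 3 libraries. The level was 6.22-fold lower in CUMS oe-circ than in CUMS vehicle (4.06 to 9.96) and 2.00-fold lower in CUMS oe-pep than in CUMS vehicle (1.54 to 2.61). The antisense gene Gm2990 overlaps Chat and had 2, 7 and 8 reads, against 24, 86 and 190 for Chat. The strand setting of the counting is not given in the sources used here, so reads of an antisense pair may not have been told apart.

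Slc18a3 (ENSMUSG00000100241), the vesicular acetylcholine transporter, had 0.285 FPKM in the CUMS oe-circ library, 1.51 in the CUMS oe-pep library and 2.49 in the CUMS vehicle library, from 10, 61 and 111 reads. It was 8.73-fold lower in CUMS oe-circ than in CUMS vehicle (4.57 to 18.7) and 1.65-fold lower in CUMS oe-pep than in CUMS vehicle (1.19 to 2.29). The pattern was that of its host gene. The Slc18a3 to Chat ratio of FPKM was 0.812 in CUMS oe-circ (0.347 to 1.76), 1.38 in CUMS oe-pep (0.979 to 1.94) and 1.14 in CUMS vehicle (0.893 to 1.45), and these intervals overlapped. Unspliced Chat RNA would also be counted in the Slc18a3 exon, since both genes lie on 1 strand. Their summed reads were 6.96-fold lower in CUMS oe-circ than in CUMS vehicle (4.87 to 10.2).

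Slc5a7 (ENSMUSG00000023945; chr17:54273590-54299034, minus strand), the high-affinity transporter that returns choline to the nerve ending, had 0.414 FPKM in the CUMS oe-circ library, 1.64 in the CUMS oe-pep library and 3.10 in the CUMS vehicle library. With 34, 155 and 324 reads it was the best counted of the genes that serve acetylcholine synthesis and loading. It was 7.49-fold lower in CUMS oe-circ than in CUMS vehicle (5.25 to 11.0) and 1.89-fold lower in CUMS oe-pep than in CUMS vehicle (1.56 to 2.31). Relative to Chat in the same library, Slc5a7 stood at 1.18 in CUMS oe-circ (0.680 to 2.08) and 1.42 in CUMS vehicle (1.18 to 1.71), and these intervals overlapped.

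Ache (ENSMUSG00000023328; chr5:137287519-137294466, plus strand), which splits acetylcholine and is also made by neurons that respond to it, was the exception in size. It had 10.9 FPKM in the CUMS oe-circ library, 12.6 in the CUMS oe-pep library and 18.4 in the CUMS vehicle library, from 735, 979 and 1576 reads. It was 1.69-fold lower in CUMS oe-circ than in CUMS vehicle (1.54 to 1.84) and 1.46-fold lower in CUMS oe-pep than in CUMS vehicle (1.34 to 1.58), so it passed the 2-fold limit in neither. The share of Ache in the summed FPKM of the 8 genes was 76.2% in CUMS oe-circ, 53.5% in CUMS oe-pep and 43.4% in CUMS vehicle. Its ratio to Chat was 31.2 in CUMS oe-circ (20.8 to 48.9), 11.6 in CUMS oe-pep (9.28 to 14.6) and 8.44 in CUMS vehicle (7.25 to 9.86), and the interval of CUMS oe-circ overlapped neither of the others. Gm42456 and Mir8116 overlap Ache and had at most 10 reads in any library.

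**Figure D2:**
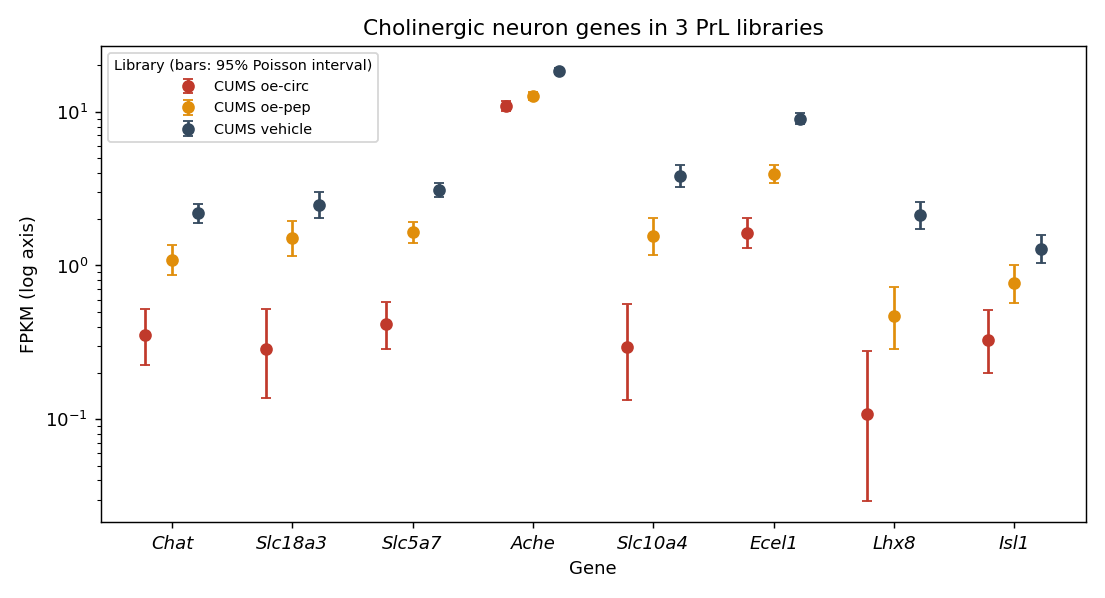
FPKM of the 8 genes on a log axis in the CUMS oe-circ, CUMS oe-pep and CUMS vehicle libraries, with exact 95% Poisson intervals as bars and 1 library a group. The points of every gene climb from left to right, and Ache, at 10.9 to 18.4 FPKM, is the most abundant gene in all 3 libraries.

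Slc10a4 (ENSMUSG00000029219; chr5:73006883-73012955, plus strand), a vesicle protein of cholinergic and monoaminergic neurons related to bile acid transporters, had 0.294 FPKM in the CUMS oe-circ library, 1.56 in the CUMS oe-pep library and 3.82 in the CUMS vehicle library, from 9, 55 and 149 reads. It was 13.0-fold lower in CUMS oe-circ than in CUMS vehicle (6.67 to 29.0) and 2.45-fold lower in CUMS oe-pep than in CUMS vehicle (1.79 to 3.40). Slc18a2, the vesicular monoamine transporter, had 60, 106 and 101 reads in the same libraries, and Th, which makes the precursor of the catecholamines, had 42, 69 and 90. None of the 5 measured genes of other amine neurons, out of 11 listed, passed 2-fold in either comparison with CUMS vehicle. Of the 20203 genes, 6.42% and 4.93% passed it downward in CUMS oe-circ and CUMS oe-pep. The median log2(FPKM + 0.1) difference of the 5 was −0.46 in CUMS oe-circ and −0.02 in CUMS oe-pep. In CUMS oe-circ 4 of the 5 were below 0, beside 50.7% of the 20203 genes. Th was 1.68-fold lower in CUMS oe-circ than in CUMS vehicle (1.16 to 2.49), and Ddc, also of this list, 1.70-fold (1.30 to 2.25).

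Ecel1 (ENSMUSG00000026247; chr1:87147655-87156521, minus strand), a neuronal metalloprotease of the neprilysin family, had 1.63 FPKM in the CUMS oe-circ library, 3.94 in the CUMS oe-pep library and 9.02 in the CUMS vehicle library, from 83, 231 and 584 reads. After Ache it was the most abundant of the 8 genes in each library. It was 5.53-fold lower in CUMS oe-circ than in CUMS vehicle (4.39 to 7.05) and 2.29-fold lower in CUMS oe-pep than in CUMS vehicle (1.96 to 2.68). Its ratio to Chat was 4.65, 3.61 and 4.13 in CUMS oe-circ, CUMS oe-pep and CUMS vehicle.

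Lhx8 and Isl1 are LIM homeodomain transcription factors that act together in the formation of forebrain cholinergic neurons, and in developing mice Isl1 is also found in striatal projection neurons. Lhx8 (ENSMUSG00000096225; chr3:154306294-154330659, minus strand) had 0.109 FPKM in the CUMS oe-circ library (0.0296 to 0.278), 0.472 in the CUMS oe-pep library (0.288 to 0.728) and 2.13 in the CUMS vehicle library (1.74 to 2.60), from 4, 20 and 100 reads. Of the 8 genes it differed most from CUMS vehicle, being 19.7-fold lower in CUMS oe-circ (7.44 to 73.5) and 4.52-fold lower in CUMS oe-pep (2.78 to 7.72), though the 4 reads leave the first of these ratios wide. Isl1 (ENSMUSG00000042258; chr13:116298281-116309689, minus strand) had 0.330 FPKM in the CUMS oe-circ library, 0.769 in the CUMS oe-pep library and 1.28 in the CUMS vehicle library, from 19, 51 and 94 reads. It was 3.89-fold lower in CUMS oe-circ than in CUMS vehicle (2.36 to 6.75) and 1.67-fold lower in CUMS oe-pep than in CUMS vehicle (1.17 to 2.39). The pair did not keep its proportion. The Lhx8 to Isl1 ratio was 0.329 in CUMS oe-circ (0.0814 to 0.991), 0.613 in CUMS oe-pep (0.346 to 1.05) and 1.66 in CUMS vehicle (1.24 to 2.23), and the interval of CUMS vehicle lay above both others.

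To set the 8 genes against all genes, differences were taken on the log2(FPKM + 0.1) scale. The 0.1 shrinks the change of low genes, and a gene counted as lower or higher when the size of its difference was over 2-fold. In CUMS oe-circ against CUMS vehicle, 7 of the 8 passed 2-fold downward, all but Ache, and 0 were higher. Over the 20203 genes, 6.42% passed 2-fold downward and 3.5% upward. Among the 14551 better counted genes, those whose mean reached 20 reads, 1.04% passed it downward. At 1.5-fold the count of lower cholinergic genes was 8 of 8 (11.4% of all genes), and at 3-fold it was 7 of 8 (3.49%). The median of the 8 genes was −2.52, beside 0.00 over the 20203 genes. Only 2 of the 14551 better counted genes had a lower value than Lhx8 (−3.42), 4 a lower one than Slc10a4 (−3.32) and 14 a lower one than Chat (−2.34), whereas 316 were lower than Ache (−0.75). In CUMS oe-pep against CUMS vehicle, 3 of 8 genes were more than 2-fold lower, Ecel1 (−1.17), Lhx8 (−1.97) and Slc10a4 (−1.24), and 0 were higher. Over the 20203 genes 4.93% passed 2-fold downward and 4.54% upward, and 0.385% of the better counted ones passed it downward. This count moved with the threshold, being 7 of 8 at 1.5-fold (9.05% of all genes) and 1 of 8 at 3-fold (2.86%). The median of the 8 genes was −0.91, and the remaining 5 lay between −0.94 for Chat and −0.54 for Ache. The CUMS vehicle library is shared, so a low or high value in it enters both comparisons.

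**Figure D3:**
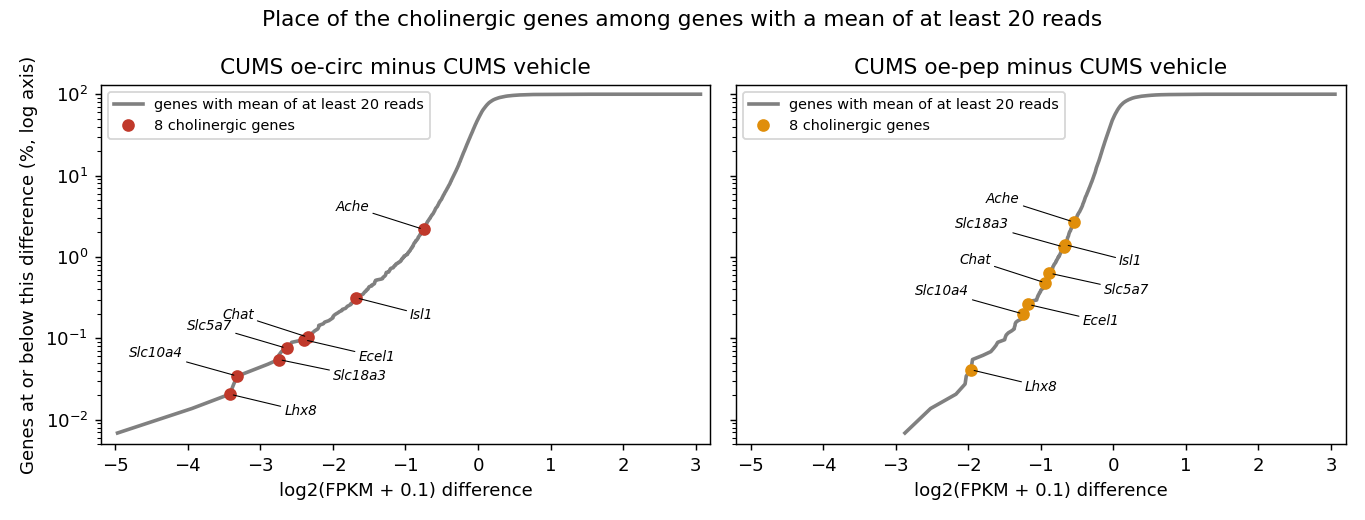
Share of genes at or below a given log2(FPKM + 0.1) difference, on a log axis, for the 14551 genes whose mean reached 20 reads (line) and the 8 cholinergic genes (points), in CUMS oe-circ minus CUMS vehicle and in CUMS oe-pep minus CUMS vehicle. All points sit in the lower tail, and Ache is the nearest to 0 in both panels.

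The comparison of CUMS oe-circ with CUMS oe-pep does not use the CUMS vehicle library. Here 7 of 8 genes were more than 2-fold lower in CUMS oe-circ and 0 higher, with a median of −1.43. Over the 20203 genes 6.26% passed 2-fold downward and 4.31% upward, and 0.921% of the better counted ones passed it downward. The count stayed at 7 of 8 at 1.5-fold (11.3% of all genes) and was 3 of 8 at 3-fold (3.45%). With 1 in place of 0.1 added to the FPKM it was 0 of 8, beside 0.777% of the 20203 genes. Slc10a4 was 5.31-fold lower in CUMS oe-circ than in CUMS oe-pep (2.60 to 12.2), Slc18a3 5.30-fold (2.69 to 11.6), Slc5a7 3.96-fold (2.72 to 5.92) and Chat 3.11-fold (1.96 to 5.12). Lhx8 was 4.34-fold lower (1.46 to 17.5), and Ecel1 and Isl1 were 2.42-fold (1.87 to 3.15) and 2.33-fold (1.35 to 4.18) lower. Ache was 1.16-fold lower (1.05 to 1.28). The intervals of all 8 genes left out a ratio of 1 in this and in both other comparisons, which speaks to counting error and not to variation between mice. How many of the 20203 genes had such intervals was not counted. A gene with many reads can have one at a small difference. Slc17a7, for instance, was 1.18-fold higher in CUMS oe-circ than in CUMS vehicle (1.15 to 1.20).

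**Figure D4:**
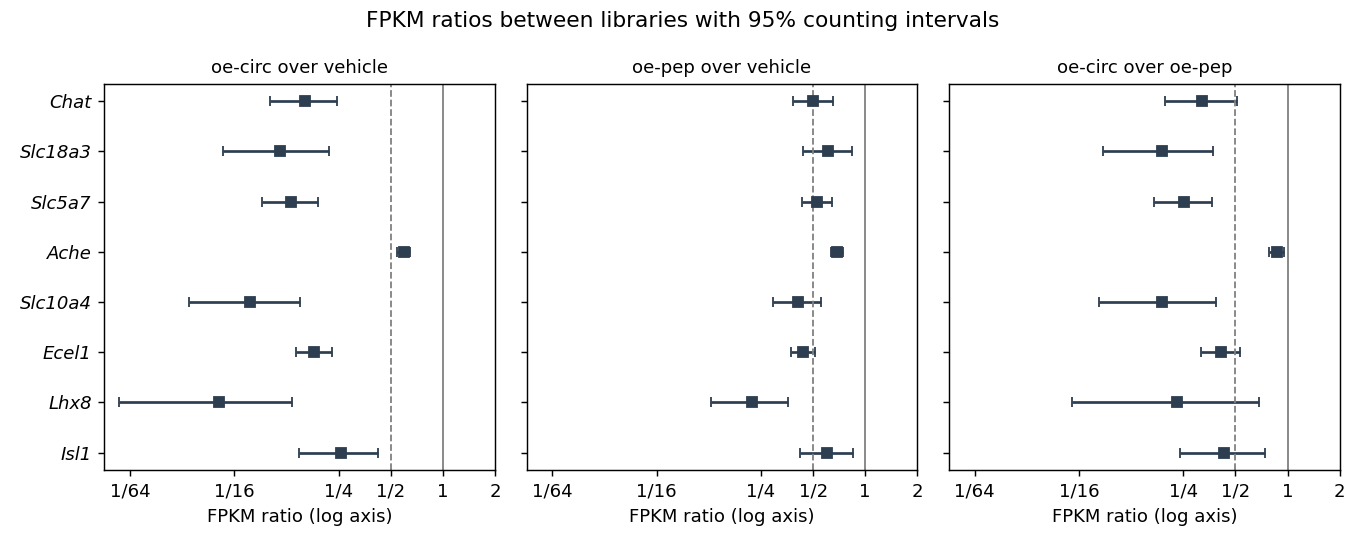
FPKM ratios of the 8 genes on a log axis in CUMS oe-circ over CUMS vehicle, CUMS oe-pep over CUMS vehicle and CUMS oe-circ over CUMS oe-pep, with exact 95% counting intervals as bars. The solid line marks a ratio of 1 and the dashed line a 2-fold lower level. All intervals lie to the left of the solid line, and in the left panel Ache alone lies to the right of the dashed one.

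The other genes of acetylcholine handling and sensing had list medians near 0. Of 20 genes of choline supply and acetylcholine breakdown, 17 had a mean FPKM of at least 0.1, and their median log2 difference was −0.06 in CUMS oe-circ and −0.02 in CUMS oe-pep. Acly, which supplies cytosolic acetyl-CoA, had 38.1, 38.1 and 41.6 FPKM in CUMS oe-circ, CUMS oe-pep and CUMS vehicle, and the choline transporter gene Slc44a1 had 13.2, 16.6 and 13.1. Prima1, which anchors Ache to the membrane of neurons, was the 1 gene of this list past 2-fold against CUMS vehicle, with 53, 122 and 143 reads, and was 2.12-fold lower in CUMS oe-circ than in CUMS vehicle (1.54 to 2.96). Of 21 acetylcholine receptor genes, 15 were measured, with medians of 0.10 in CUMS oe-circ and −0.04 in CUMS oe-pep. The muscarinic receptor genes Chrm1 and Chrm3, abundant in cortex, had 29.5, 26.7 and 25.6 FPKM and 13.4, 11.8 and 9.25 FPKM in the 3 libraries. The receptor genes past 2-fold had few reads: Chrm5 had 0 reads in CUMS oe-circ and 11 in CUMS vehicle, and in CUMS oe-pep against CUMS vehicle Chrna2 had 8 and 25 reads and Chrna6 9 and 2. Of 12 measured receptor chaperones and modulators, 0 passed 2-fold in either comparison with CUMS vehicle, near the 6.42% and 4.93% of the 20203 genes that passed it downward. Prima1, Chrm5, Chrna2 and Chrna6 are named because they passed 2-fold, after their values had been seen.

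Several markers of basal forebrain cholinergic neurons were also lower than in CUMS vehicle. Of 14 such markers, 7 were more than 2-fold lower in CUMS oe-circ and 5 in CUMS oe-pep than in CUMS vehicle. The shares over the 20203 genes were 6.42% and 4.93%. Of the 14 markers 0 were higher, and the medians were −0.76 and −0.49. Gal, Gbx1 and Gbx2, counted as lower in both comparisons, reached 0.1 FPKM in CUMS vehicle alone. They so entered the list only through the library where they were high. Ngfr, which encodes a neurotrophin receptor, had 31 reads in CUMS oe-circ, 41 in CUMS oe-pep and 192 in CUMS vehicle. The homeobox gene Gbx1 had 1, 4 and 73. Both genes were named after their values had been seen. In CUMS oe-circ against CUMS oe-pep, Ngfr was 1.15-fold lower with an interval that held 1 (0.703 to 1.90), unlike the 8 cholinergic genes. Calb1, which many other neurons also express, had 30.6, 22.7 and 29.8 FPKM.

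Markers of forebrain regions outside the PrL moved with the 8 genes, and their part in the result was not tested. Of 13 measured markers of the septum, preoptic area and hypothalamus, 8 passed 2-fold downward in CUMS oe-circ and 6 in CUMS oe-pep against CUMS vehicle. The shares over the 20203 genes were 6.42% and 4.93%. Irs4, counted as lower in both, had 0.0655, 0.0474 and 0.300 FPKM in CUMS oe-circ, CUMS oe-pep and CUMS vehicle. It thus entered the list only through the library where it was high, and was named after its values had been seen. The summed level of all 16 listed markers was 16.6, 23.7 and 39.4 FPKM in CUMS oe-circ, CUMS oe-pep and CUMS vehicle. Of 12 striatal projection neuron genes, 10 were more than 2-fold lower in CUMS oe-circ and 0 in CUMS oe-pep, beside 6.42% and 4.93% of the 20203 genes. These 12 striatal genes had medians of −1.51 and −0.13. Their summed level was 228, 549 and 673 FPKM, and the median of the 8 cholinergic genes in CUMS oe-pep was −0.91. The striatal genes were uneven there, with the dynorphin precursor gene Pdyn 1.88-fold lower in CUMS oe-pep than in CUMS vehicle (1.73 to 2.05) and the enkephalin precursor gene Penk 1.58-fold lower (1.52 to 1.65), beside a log2 difference of −0.06 for Ppp1r1b. Pdyn was named after its values had been seen. In CUMS oe-circ against CUMS oe-pep, 9 of these 12 striatal genes were more than 2-fold lower, beside 6.26% of the 20203 genes. The median of the 12 was −1.39, beside −1.43 for the 8 genes. None of the 12 striatal markers was at 0 in any library, nor was any of the 8 cholinergic genes. Gal and Gbx2 of the basal forebrain list had 0 reads in CUMS oe-circ and 11 reads each in CUMS vehicle, both named after their values had been seen. The least counted striatal marker had 127 reads in its lowest library. Whether the counts of 0 follow the abundance of the genes was not tested, so they are not read as a difference between the lists.

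**Figure D5:**
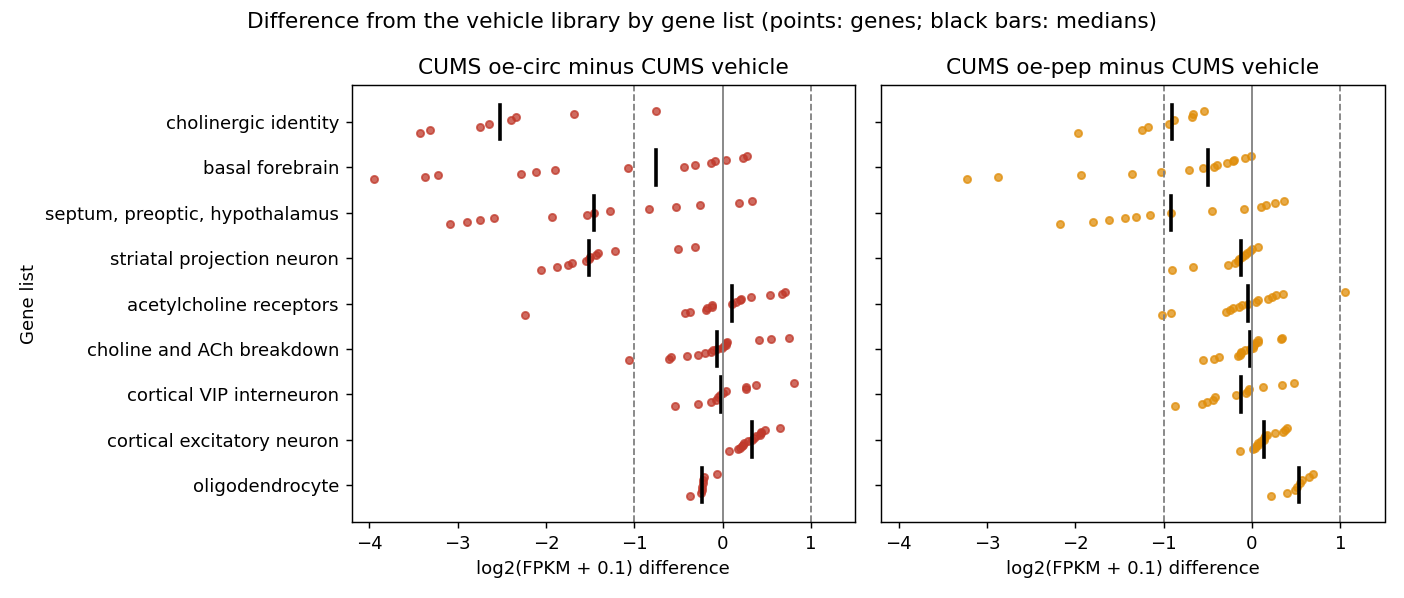
Log2(FPKM + 0.1) difference of each gene (points) and the list median (black bars) for the 8 cholinergic identity genes and 8 other lists, in CUMS oe-circ minus CUMS vehicle and CUMS oe-pep minus CUMS vehicle. Dashed lines mark 2-fold. The striatal list sits at a median of −1.51 in the left panel and −0.13 in the right one, where the cholinergic list is at −0.91.

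Markers of cortical cells were mixed. The 12 markers of cortical VIP interneurons, the class that holds many of the few Chat-positive cells of the cortex, had 0 genes past 2-fold in both comparisons. This lies near the shares over the 20203 genes, 6.42% and 4.93% downward. The medians of the 12 were −0.01 in CUMS oe-circ and −0.13 in CUMS oe-pep. Vip itself had 16.3 FPKM in CUMS oe-circ, 10.1 in CUMS oe-pep and 9.24 in CUMS vehicle, while Calb2 had 8.36, 6.61 and 12.2 FPKM and Synpr 10.3, 9.41 and 12.6. Of these 12 markers, 7 were below 0 in CUMS oe-circ and 9 in CUMS oe-pep, beside 50.7% and 50.2% of the 20203 genes. Among 10 markers of other cortical interneurons, 6 were below 0 in each comparison with CUMS vehicle, beside the same shares. The medians of the 10 were −0.16 and −0.14. Lamp5 and Pvalb went upward, with 81.2, 54.5 and 48.7 FPKM and 54.9, 49.1 and 39.9 FPKM in CUMS oe-circ, CUMS oe-pep and CUMS vehicle. Tac1, a tachykinin precursor, passed 2-fold downward in CUMS oe-circ with 8.53 FPKM, beside 14.6 in CUMS oe-pep and 24.7 in CUMS vehicle, and Gad2, an enzyme of GABA synthesis, had 31.2, 38.3 and 54.3 FPKM, in the same order of libraries as the 8 genes. Among 10 markers of deep prelimbic layers the medians were −0.37 and −0.04, with a summed level of 106, 131 and 148 FPKM, and Foxp2, a transcription factor of deep layers that striatal neurons also express, passed 2-fold downward in CUMS oe-circ with 0.975, 1.71 and 2.09 FPKM. Calb2, Pvalb, Tac1, Gad2 and Foxp2 were named after their values had been seen. All 15 markers of cortical excitatory neurons were higher than 0 in CUMS oe-circ against CUMS vehicle, whereas 50.7% of the 20203 genes were below 0. The median of the 15 was 0.34, and their summed level was 1081, 980 and 918 FPKM. The pan-neuronal markers had medians of 0.17 and −0.02. Oligodendrocyte markers, such as Mbp at 269, 489 and 314 FPKM, had medians of −0.23 in CUMS oe-circ and 0.53 in CUMS oe-pep, with a summed level of 818, 1392 and 953 FPKM. These markers also differed between the libraries, and their part in the result was not tested.

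Markers of motor neurons, which are cholinergic too, gave little signal. Of 11 motor neuron genes, 2 reached a mean FPKM of 0.1, and Hoxa5, Hoxc4, Mnx1 and Tbx20 were among those with 0 reads in all 3 libraries. The 8 listed genes of habenular cholinergic neurons had 869, 622 and 840 reads in CUMS oe-circ, CUMS oe-pep and CUMS vehicle, most of them from Nwd2 with 688, 491 and 642. Of the 6 that were measured, 0 passed 2-fold against CUMS vehicle, near the 6.42% and 4.93% of the 20203 genes that passed it downward. Their medians were 0.07 in CUMS oe-circ and −0.24 in CUMS oe-pep.

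The genes whose pattern lay nearest to that of Chat were ranked by the distance between the pairs of log2 differences from CUMS vehicle, over 3 libraries and among the 14551 better counted genes, leaving out the other 7 cholinergic genes. Six3, a homeodomain transcription factor of the forebrain, was the nearest at a distance of 0.201, with 49, 183 and 345 reads in CUMS oe-circ, CUMS oe-pep and CUMS vehicle. Tacr3, the neurokinin receptor for neurokinin B, followed at 0.234 with 13, 46 and 96 reads, and the potassium channel gene Kcna5 at 0.339 with 39, 142 and 246 reads. Clic6, Zfp503, Nkx2-1 and Crabp1 were also among the 8 nearest genes, at distances of up to 0.426. The same genes were among the 8 nearest to the median of the cholinergic genes, as was Nts, the neurotensin precursor. Of the cholinergic genes themselves, Ecel1 stood at a distance of 0.243 from Chat and Slc5a7 at 0.304, whereas Lhx8 and Ache stood at 1.49 and 1.64. With 3 libraries many genes share such a pattern, and both differences use the same CUMS vehicle library.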

How the data were processed

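Expression of the 8 cholinergic genes was examined in 3 RNA-seq libraries of PrL tissue, 1 for each of the CUMS oe-circ, CUMS oe-pep and CUMS vehicle groups, grouped by the vector named in the sample labels. A strand-specific mRNA kit was used. Tools named by the submitters' processing notes are featureCounts 1.6.3, HISAT2 2.1.0 and cutadapt 2.5, the genome build is mm10, and the strand setting of the counting is not given in the sources used here. The authors deposited FPKM and gene length for 54532 genes. The product of FPKM and length was a whole number of equal steps to within 7.74e-09 of a read, so the reads behind each value were recovered, between 14413544 and 18084058 a library. The study's methods state RMA and limma with |log2 fold change| above 1 and a P value threshold. With 1 library a group no such test was run and only the fold size was used.

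Differences were taken as log2(FPKM + 0.1) for the 20203 genes whose mean FPKM reached 0.1, and counted when over 2-fold. Alternatives were pseudocounts of 0.01 and 1, median ratio scaling, rescaling without mitochondrial genes, no filter or a filter at a mean FPKM of 1 or a mean of 20 reads, protein-coding genes alone, and thresholds of 1.5-fold and 3-fold. Mitochondrial genes held 16.4% to 17.0% of the summed FPKM and hemoglobin genes 0.0964% to 0.140%. The named genes were all 8 members, the 8 nearest to Chat and to the members' median, up to 4 genes of the highest mean FPKM in each of 18 other lists, genes overlapping a member, and Fkbp8. Some genes under this rule are not reported here. Genes outside the rule are marked where named, apart from those given for having 0 reads. Members and lists were chosen with earlier results of these data known. Lists not described in the report had medians of 0.03 in CUMS oe-circ and 0.18 in CUMS oe-pep for astrocytes, −0.07 and −0.14 for microglia, and 0.19 and 0.55 for blood. Positions were compared with GENCODE M21, and promoter windows came from RefSeq GRCm38.p6. The steps were tested on simulated data. The software was matplotlib 3.10.9, scipy 1.17.1, pandas 2.3.3, numpy 2.4.6 and Python 3.11.15.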

Additional observations from a re-analysis of the deposited data

How the results depend on the processing

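With 1 library a group, no library could be left out. No paired analysis was possible because each group had 1 library. Under every alternative, each of the 8 genes that passed its filter stayed below 0 in all 3 comparisons (186 of 186 values). For CUMS oe-circ against CUMS vehicle the count of genes more than 2-fold lower was 7 and lay between 5 and 8 under the alternatives, with 5 of the 6 genes that had a mean FPKM of at least 1. For CUMS oe-pep against CUMS vehicle it was 3, but 7 at more than 1.5-fold and 1 at more than 3-fold, so this count depends on the threshold. For CUMS oe-circ against CUMS oe-pep it was 7, but 3 at more than 3-fold and 0 with a pseudocount of 1, which is large beside the levels of most of the genes. The pseudocount of 1 also gave all 16 single values that moved. Median ratio scaling used factors of 1.004, 0.997 and 0.999 for CUMS oe-circ, CUMS oe-pep and CUMS vehicle and changed none of the 3 counts of the 8 genes. Over all genes, the count of more than 2-fold lower genes was 1297 in CUMS oe-circ, 995 in CUMS oe-pep and 1265 in CUMS oe-circ against CUMS oe-pep. It was 153, 107 and 157 with a pseudocount of 1, 174, 90 and 148 at a mean FPKM of at least 1, 151, 56 and 134 at a mean of at least 20 reads, and 308, 188 and 312 for protein-coding genes. With no filter the CUMS oe-pep count was 1624. The counts were 2311, 1829 and 2290 at more than 1.5-fold and 706, 578 and 696 at more than 3-fold. Lhx8 in CUMS oe-circ rests on 4 reads, Slc10a4 on 9 and Slc18a3 on 10.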
